A study of Thermothelomyces thermophilus ATCC 42464 with 4 samples.

Results

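Transcripts of 3 redox enzyme genes were examined in RNA-seq libraries of *Myceliophthora thermophila*, a thermophilic fungus that degrades plant cell walls. The genes are *Mycth_112025*, *Mycth_2084531* and *Mycth_2067982*, 3 of the 8716 genes in the data. *Mycth_2084531* is described as a mercuric reductase and *Mycth_2067982* as a chloroperoxidase. The description of *Mycth_112025* is Glutathione S-transferase, N-terminal. It names only the N-terminal part of such an enzyme, and the gene is called the transferase gene for short. All 3 were chosen by their measured levels, because each was higher in the libraries labelled as a mutant than in those of the wild type of this same data set. Their differences between the strains are therefore a description and carry no test.

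The data set holds 4 libraries, 2 from a strain labelled ΔMtTrh-1, a deletion mutant of that gene, and 2 from MtWT, the wild type. Mycelia of both strains first spent 16 h at 45°C in Vogel's salts with 2% glucose, and after washing were kept for 4 h on 2% Avicel, a crystalline cellulose. Whether both libraries of a strain stem from different cultures is not stated in the labels. The methods of the paper describe independent biological replicates for its RNA-seq, but more per condition than the 2 libraries analysed here. The paper names a different data set for its RNA-seq, so its methods may not hold for these 4 libraries. The p-values rest on the spread between libraries alone, which could be technical. The deletion in the study's methods carries a *neo* resistance cassette that MtWT lacks, and the number of transformants behind the 2 libraries is not given in the sources used here. Values are FPKM, fragment numbers corrected for how long a gene is and for library size, so levels of different genes can be compared per length. RNA came from whole mycelium, so a changed share of one part of the hyphae and a changed amount of RNA per cell cannot be told apart.

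The deleted gene was taken to be *Mycth_90344*, called *Mttrc-1* in the paper, since the data set's title gives MtTrh-1 the targets studied there. This reading of the label was not tested. *Mycth_90344* had 215.45 and 223.41 FPKM in the libraries labelled ΔMtTrh-1, against 13.29 and 14.47 FPKM in MtWT. This is the opposite of what the label of a deletion would give, and the directions below are those of the labels. FPKM sums ranged from 725984 to 741923 per library, and the read depth is unknown. The log2 difference between 2 libraries of a strain had an SD over 7525 genes of 0.164 for ΔMtTrh-1 and 0.153 for MtWT.

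By their descriptions, the 3 products belong to enzyme families that handle electrons, peroxides and reactive compounds. Glutathione S-transferases join the tripeptide glutathione to electrophilic molecules, which makes these more soluble and easier to remove. Chloroperoxidases use hydrogen peroxide to oxidise halide ions and organic substrates. Mercuric reductases, best known from bacteria, are flavin enzymes that reduce mercury ions with NADPH. They share a fold with glutathione reductase and dihydrolipoamide dehydrogenase, so this description alone does not show which substrate the fungal protein reduces.

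The glutathione S-transferase gene was the most abundant of the 3. *Mycth_112025* reached 2084.84 and 2000.34 FPKM in the libraries labelled ΔMtTrh-1, against 643.75 and 656.26 FPKM in MtWT. Both libraries labelled ΔMtTrh-1 lay above both MtWT libraries, and the gap was far wider than the spread within a strain. All 3 genes were chosen for being higher, so such a gap is only described for each of them. How many of all genes separate in this way was not counted. The mean was 3.14-fold higher, at 2043 ± 60 FPKM in the libraries labelled ΔMtTrh-1 and 650.0 ± 8.8 FPKM in MtWT (SD, n = 2 each). Any library labelled ΔMtTrh-1 over any MtWT library gave a ratio between 3.05 and 3.24. The gene was already among the abundant transcripts of the wild type. It ranked 43rd by mean level in the libraries labelled ΔMtTrh-1 and 231st in MtWT, of 8716 genes. It made up 0.281% of all FPKM in the libraries labelled ΔMtTrh-1 and 0.0879% in MtWT.

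The gene described as a mercuric reductase had the largest fold of the 3. *Mycth_2084531* reached 1135.15 and 1110.46 FPKM in the libraries labelled ΔMtTrh-1, against 135.74 and 133.65 FPKM in MtWT. The libraries of a strain differed by 2.22% in ΔMtTrh-1 and by 1.56% in MtWT, and the strains did not overlap. The mean was 8.34-fold higher, at 1123 ± 17 FPKM in the libraries labelled ΔMtTrh-1 and 135 ± 1 FPKM in MtWT (SD, n = 2 each). In rank it stood 127th in the libraries labelled ΔMtTrh-1 and 827th in MtWT. Its share of all FPKM was 0.154% in the libraries labelled ΔMtTrh-1 and 0.0182% in MtWT.

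The chloroperoxidase gene was weakly expressed in MtWT and the least abundant of the 3 in both strains, although its fold was close to that of the reductase gene. *Mycth_2067982* reached 17.37 and 16.73 FPKM in the libraries labelled ΔMtTrh-1, against 2.00 and 2.21 FPKM in MtWT. Both libraries labelled ΔMtTrh-1 were again above both MtWT libraries. Means were 17.1 ± 0.5 FPKM in the libraries labelled ΔMtTrh-1 and 2.11 ± 0.15 FPKM in MtWT (SD, n = 2 each), an 8.10-fold difference. The MtWT libraries differed by 10.5%, the widest spread within a strain among the 3 genes. It ranked 4083rd in the libraries labelled ΔMtTrh-1 and 7029th in MtWT, so the higher level was still that of a middling transcript.

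**Figure D1:**
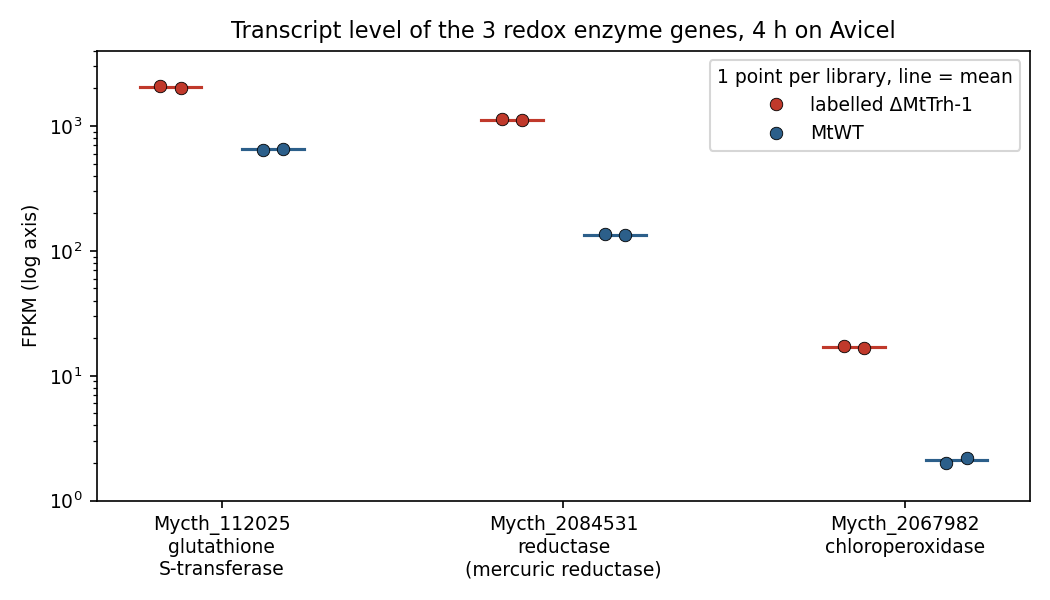
FPKM of the 3 enzyme genes on a log axis, with 1 point per library and a line at the mean of the 2 libraries of a strain (red, labelled ΔMtTrh-1; blue, MtWT). For each gene both red points lie above both blue points, from 17.37 and 16.73 against 2.00 and 2.21 FPKM for the chloroperoxidase gene to 2084.84 and 2000.34 against 643.75 and 656.26 FPKM for the glutathione S-transferase gene.

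The order of the 3 levels was the same in every library, with the transferase gene above the reductase gene and the chloroperoxidase gene last. Neighbours in this order differed by more than their spread in each strain. The distance between the first 2 was smaller in the libraries labelled ΔMtTrh-1. The transferase gene had 1.84 and 1.80 times the FPKM of the reductase gene in the libraries labelled ΔMtTrh-1, against 4.74 and 4.91 times in MtWT. The transferase gene also had 120.0 and 119.6 times the FPKM of the chloroperoxidase gene in the libraries labelled ΔMtTrh-1, against 321.9 and 297.0 times in MtWT. By contrast, the ratio of chloroperoxidase to reductase FPKM was nearly level over the libraries. It was 0.0153 and 0.0151 in the libraries labelled ΔMtTrh-1, against 0.0147 and 0.0165 in MtWT, and here the strains overlapped. In absolute terms the differences of the means were 1393 FPKM for the transferase gene, 988 FPKM for the reductase gene and 14.9 FPKM for the chloroperoxidase gene.

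For comparison with other genes, log2(FPKM + 1) was fitted with limma over 7525 genes, those averaging 1 FPKM or more. A call required a log2 fold change of more than 1 in either direction together with an adjusted p under 0.05. Of all genes tested, 10.3% were called, 5.30% higher and 4.96% lower in the libraries labelled ΔMtTrh-1, and 65.5% had an adjusted p under 0.05 with no fold threshold. All 3 enzyme genes passed the filter and were among the 399 called higher. They had been chosen for being higher in these data, so nothing is read from this count. Their log2 fold changes on this scale were 3.05 for the reductase gene, 2.54 for the chloroperoxidase gene and 1.65 for the transferase gene. Counted from the most positive fold change in the direction of the labels, these were places 37, 55 and 148. The pseudocount lowered the value of the chloroperoxidase gene, low in MtWT, which was 3.02 without it. The reductase gene had 3.06 and the transferase gene 1.65 without it.

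**Figure D2:**
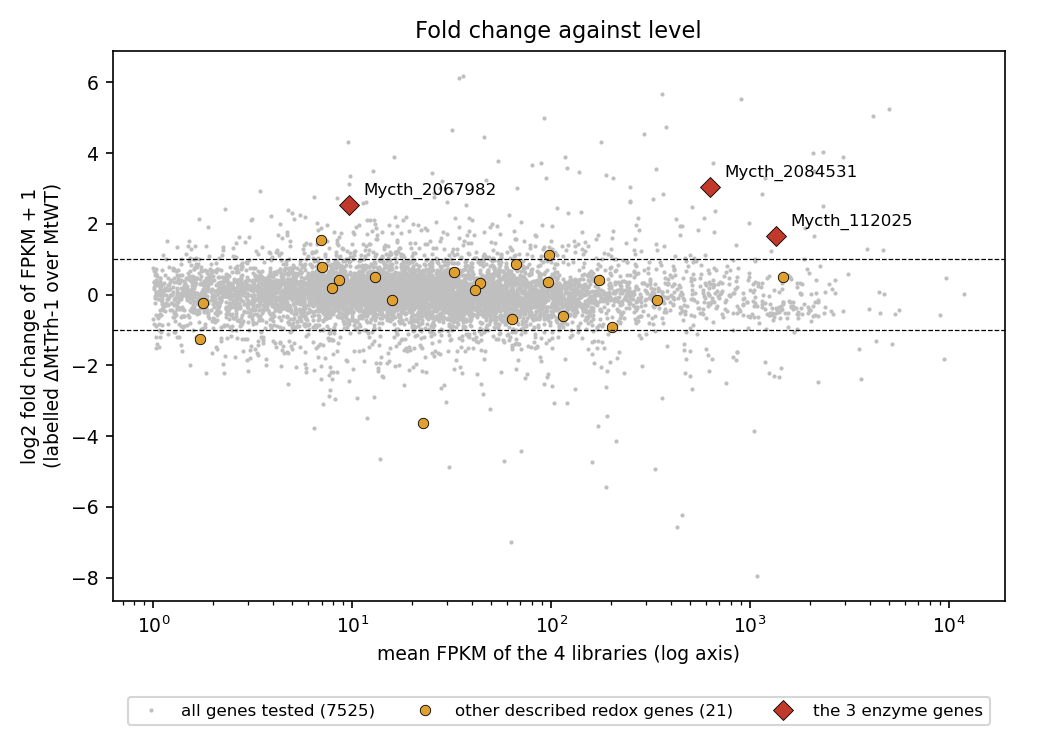
Log2 fold change of FPKM + 1 (labelled ΔMtTrh-1 over MtWT) against the mean FPKM of the 4 libraries on a log axis. Grey points are the 7525 genes tested, orange circles the 21 other described redox genes, red diamonds the 3 enzyme genes, and dashed lines the log2 fold threshold of 1. The reductase and transferase genes combine a high level with log2 fold changes of 3.05 and 1.65, whereas the chloroperoxidase gene lies at a lower level with 2.54.

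Other redox genes were found by words in product descriptions, which were at hand for 1490 of the 8716 genes. There were 33 such genes with the 3 enzyme genes and 30 without them. Of the 30, 21 were tested and 9 fell under the filter. Among the 21, 2 were higher, 2 were lower and 17 were not called. This is 19.0% of the 21, beside 10.3% of all genes tested, and the 4 genes went both ways. The median log2 fold change of the 21 was 0.33, beside 0.029 over all genes tested. Both comparisons include genes without a description. Of the described genes 1118 were tested, and the share called among them was not counted. The descriptions came from the study's table of expression results, so described genes may not represent all genes. This limit holds for each list below.

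No further glutathione gene was among those with a description at hand, so *Mycth_112025* could not be set beside others of its family. Of the peroxidase, catalase and superoxide dismutase words, only peroxidases were found there. Genes without a description at hand may include more of either kind. A second chloroperoxidase gene, *Mycth_2111533*, was listed at 0 in all 4 libraries. The gene described as a fungal lignin peroxidase, *Mycth_2111272*, had 0.47 and 0.24 FPKM in the libraries labelled ΔMtTrh-1, against 0.25 and 0.46 FPKM in MtWT. The animal-type haem peroxidase gene *Mycth_2094824* had 0.66 and 0.70 FPKM in the libraries labelled ΔMtTrh-1, against 0.84 and 0.91 FPKM in MtWT. These 3 genes were too low to be tested, and *Mycth_2067982* was the only described peroxidase gene above 1 FPKM. The gene listed under the symbol *cat1*, picked after its values were seen, had 60.55 and 65.79 FPKM in the libraries labelled ΔMtTrh-1, against 47.44 and 47.23 FPKM in MtWT. The difference of 0.41 ± 0.06 on the log2 scale (SE; limma, adjusted p = 0.00021) was short of the fold threshold.

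The described flavin enzymes of the disulfide reductase group, to which the mercuric reductase description belongs, moved in both directions. Besides *Mycth_2084531*, 4 of 5 were tested, with 1 higher, 2 lower and 1 not called, beside 5.30% higher and 4.96% lower among all genes tested. *Mycth_112714*, a class II pyridine nucleotide-disulfide oxidoreductase, fell to 3.02 and 2.13 FPKM in the libraries labelled ΔMtTrh-1, against 41.16 and 44.14 FPKM in MtWT. The log2 fold change came to −3.62 ± 0.11 (SE; limma, adjusted p = 6.4e-09). A further class II gene, *Mycth_2052693*, had 10.51 and 11.22 FPKM in the libraries labelled ΔMtTrh-1, against 2.94 and 3.19 FPKM in MtWT, and was higher (log2 fold change 1.55, adjusted p = 5.9e-07, limma). The FAD-dependent *Mycth_108836* was lower and near the filter, with 0.53 and 0.69 FPKM in the libraries labelled ΔMtTrh-1, against 2.86 and 2.74 FPKM in MtWT (log2 fold change −1.24, adjusted p = 4.2e-05, limma). With a pseudocount of 5 FPKM the last 2 genes lost their calls, at 0.98 and −0.48. *Mycth_2119794* had 1.6 and 1.5 FPKM in the libraries labelled ΔMtTrh-1, against 1.96 and 2.04 FPKM in MtWT, and was not called (adjusted p = 0.14, limma). Summed over the 5 genes other than *Mycth_2084531*, FPKM came to 16.28 and 16.35 in the libraries labelled ΔMtTrh-1, against 49.41 and 52.91 in MtWT. Most of the MtWT sum was *Mycth_112714* alone, at 41.16 and 44.14 FPKM. The lower sum in the libraries labelled ΔMtTrh-1 therefore does not describe the others. The *Mycth_2084531* transcript was the most abundant of the group in both strains.

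None of the 7 tested genes of thioredoxin and peroxiredoxin descriptions passed both thresholds, beside 10.3% of all genes tested. With 7 genes this is too few to read a trait of the family from it. By the adjusted p alone 6 of the 7 passed, beside 65.5% of all genes tested, and the unadjusted p was under 0.05 for the same number (limma). Of these 6, 3 had positive and 3 had negative fold changes. The most abundant was *Mycth_2095451*, of the alkyl hydroperoxide reductase and thiol-specific antioxidant family, whose members reduce peroxides through cysteines. It had 1654.18 and 1782.99 FPKM in the libraries labelled ΔMtTrh-1, against 1236.28 and 1211.87 FPKM in MtWT, which is 0.49 on the log2 scale (limma, adjusted p = 5.3e-05). In MtWT this gene stood above the glutathione S-transferase gene, and in the libraries labelled ΔMtTrh-1 below it. *Mycth_113985*, described by a thioredoxin-like fold, had 322.94 and 323.45 FPKM in the libraries labelled ΔMtTrh-1, against 371.61 and 347.82 FPKM in MtWT (log2 fold change −0.15, adjusted p = 0.024, limma). The 7 log2 fold changes ran from −0.70 to 0.49, all nearer to 0 than those of the 3 enzyme genes, which were chosen for being higher.

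Of 13 genes described as aldo/keto, short-chain, nitro-, flavin or cytochrome reductases, 10 were tested and 1 was called, beside 10.3% of all genes tested. The share called in this list was thus near that of all genes. The gene called, the nitroreductase *Mycth_106768*, of a family that reduces nitro groups with a flavin cofactor, was higher. It had 136.56 and 131.93 FPKM in the libraries labelled ΔMtTrh-1, against 65.07 and 57.54 FPKM in MtWT, which is 1.12 ± 0.06 on the log2 scale (SE; limma, adjusted p = 4.0e-07). The 2 most abundant of those not called were aldo/keto reductase genes, whose products reduce aldehydes and ketones. *Mycth_110022* had 138.97 and 143.52 FPKM in the libraries labelled ΔMtTrh-1, against 275.77 and 253.49 FPKM in MtWT (log2 fold change −0.90, adjusted p = 6.2e-07, limma). *Mycth_113236* had 83.97 and 88.68 FPKM in the libraries labelled ΔMtTrh-1, against 50.57 and 42.72 FPKM in MtWT (log2 fold change 0.88, adjusted p = 8.0e-06, limma). Both passed the p threshold only. The median log2 fold change of the 10 genes was 0.46.

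**Figure D3:**
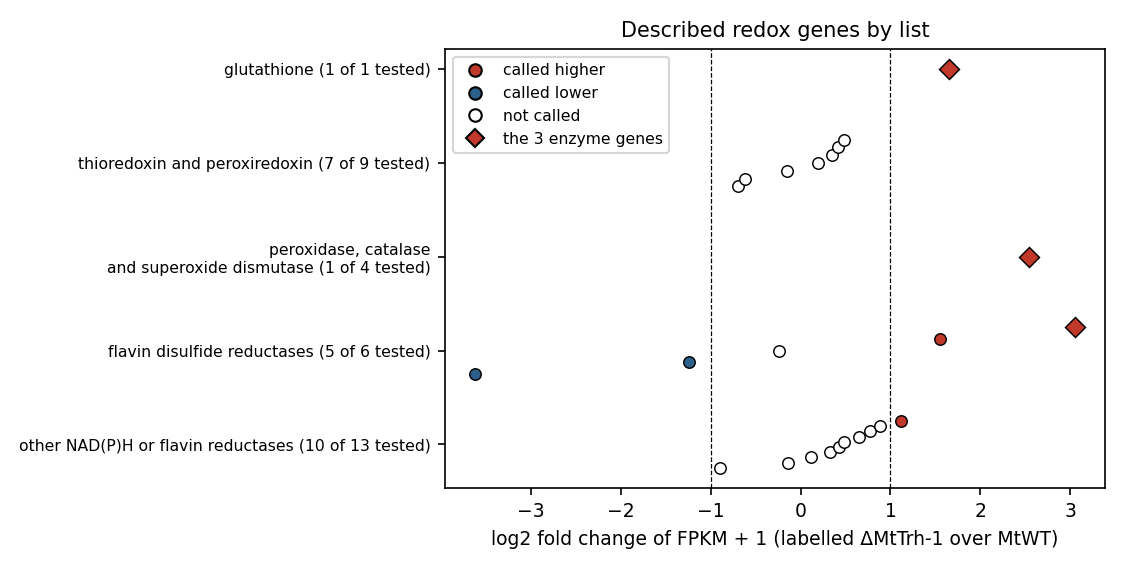
Log2 fold change of FPKM + 1 (labelled ΔMtTrh-1 over MtWT) of the described redox genes, 1 row per list, with the number tested of those described. Diamonds are the 3 enzyme genes, red fill marks genes called higher, blue genes called lower and white genes not called, and dashed lines stand at −1 and 1. The genes of the thioredoxin and peroxiredoxin list lie between −0.70 and 0.49, whereas the flavin disulfide reductase genes run from −3.62 to 3.05.

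All tested genes next to the 3 enzyme genes had a positive log2 fold change, beside a median of 0.029 over all genes tested. The smallest, that of *Mycth_2072733*, turned to −0.094 without MtWT replicate 2. How many of all genes had a positive value was not counted. The gene order was taken from the RefSeq table of assembly ASM22609v1, with 2 annotated genes on either side. Of these 12 neighbours, 3 were tRNA genes and 1 was not analysed here. Of the other 8, 7 were tested, with log2 fold changes from 0.027 to 1.32. At both thresholds 1 of the 7 was called, as higher, beside 5.30% of all genes tested called higher and 10.3% called either way. By the adjusted p alone 5 of the 7 passed, all higher. Over all genes tested 65.5% passed by the adjusted p alone, and 2570 of 7525 passed as higher (limma). The gene called was *Mycth_2311667*, next to the reductase gene, with 35.73 and 40.68 FPKM in the libraries labelled ΔMtTrh-1, against 14.45 and 14.90 FPKM in MtWT. On the log2 scale it was higher by 1.32 ± 0.07 (SE; limma, adjusted p = 3.5e-07). On the other side of the reductase gene, the abundant *Mycth_2316497* had 1926.47 and 1772.09 FPKM in the libraries labelled ΔMtTrh-1, against 1331.08 and 1379.33 FPKM in MtWT, a log2 fold change of 0.45. The outer neighbours of the reductase gene, *Mycth_2072733*, described as a DEAH-box helicase, and *Mycth_2311673*, had 0.027 and 0.25.

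Beside the chloroperoxidase gene, *Mycth_116679*, of unknown function, had 13.37 and 14.16 FPKM in the libraries labelled ΔMtTrh-1, against 9.39 and 10 FPKM in MtWT, a log2 fold change of 0.47. The next protein-coding gene on the other side, *Mycth_2309458*, had 0.31. Beside the transferase gene, *Mycth_2305937* had 11.37 and 11.34 FPKM in the libraries labelled ΔMtTrh-1, against 10.19 and 10.30 FPKM in MtWT (adjusted p = 0.13, limma). *Mycth_2305943*, on its other side, lay between 0.08 and 0.31 FPKM in the 4 libraries and was not tested.

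**Figure D4:**
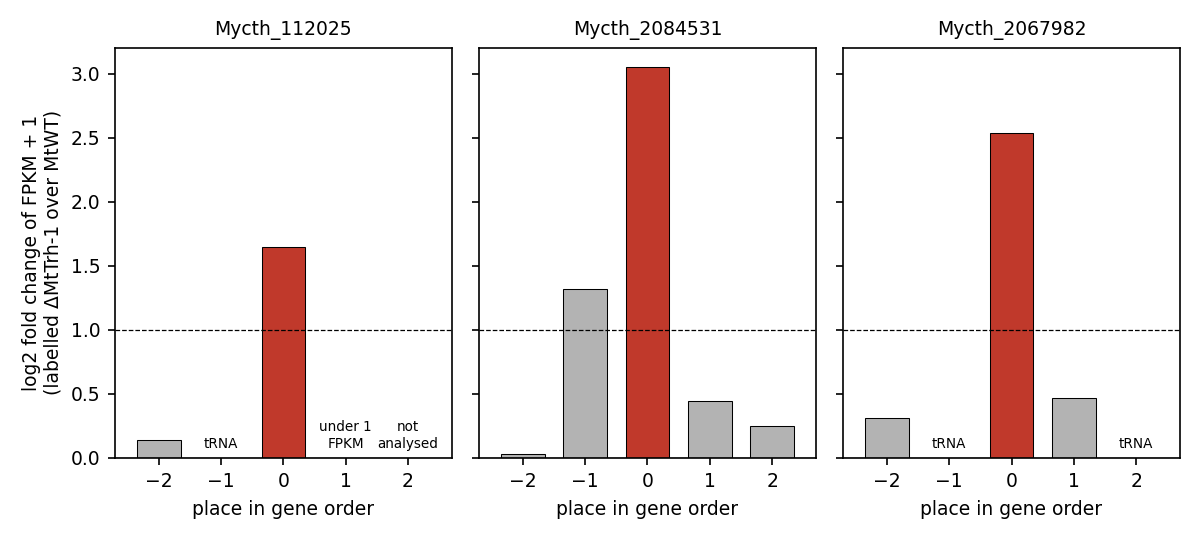
Log2 fold change of FPKM + 1 (labelled ΔMtTrh-1 over MtWT) of each enzyme gene (red, place 0) and of the 2 annotated genes on either side (grey), in the order of the RefSeq table. The dashed line is the log2 fold threshold of 1, words mark places without a value, and the only neighbour above the line is the one at −1 of *Mycth_2084531*, with 1.32.

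The genes nearest in pattern were taken by the distance between log2(FPKM + 1) values over the 4 libraries, which counts level and difference together. A small distance here follows from how these genes were picked, so their differences are given without a test. Nearest to the transferase gene was *Mycth_71850*, at a distance of 0.18, with 1851.50 and 2083.47 FPKM in the libraries labelled ΔMtTrh-1, against 628.65 and 652.34 FPKM in MtWT. It was followed by *Mycth_2315630* at 0.42 and *Mycth_2301316* at 0.76. Nearest to the chloroperoxidase gene was *Mycth_54712*, at 0.41, with 19.42 and 20.68 FPKM in the libraries labelled ΔMtTrh-1, against 2.49 and 2.46 FPKM in MtWT. *Mycth_2061639* and *Mycth_60509* came next, at 0.63 and 0.66.

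The reductase gene had no gene as near. *Mycth_2308119*, at 0.60, had 849.11 and 885.97 FPKM in the libraries labelled ΔMtTrh-1, against 159.22 and 148.48 FPKM in MtWT. *Mycth_108317*, which carries a phosphopantetheine attachment site, the anchor of carrier proteins, had 1137.63 and 1276.69 FPKM in the libraries labelled ΔMtTrh-1, against 90.97 and 88.76 FPKM in MtWT, at a distance of 0.84. *Mycth_2090891*, described as a barwin-related endoglucanase, came next at 0.97. None of these 9 genes is a described redox gene by the words used here. Most of them have no product description at hand, however, so the words could not have found them.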

How the data were processed

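RNA-seq values of 4 libraries were used as deposited. The authors gave 1 FPKM value per gene and library, rounded to 2 decimals. The submitters' notes name HISAT and Bowtie2, whereas for quantifier, build and annotation nothing is stated in the sources used here. TopHat and HTSeq-count appear in the methods of the paper, which names a different data set for its RNA-seq. Values of this unit are unsuitable for a count model, and log2(FPKM + 1) was fitted with limma 3.58.1 (R 4.3.3), using a mean-variance trend, no covariate and Benjamini-Hochberg adjustment over 7525 genes that averaged 1 FPKM or more. Depth is unknown, since the file gives neither totals nor lengths, and fold changes with a pseudocount understate those of low genes. No exact permutation test was used, as its smallest p for 2 libraries a strain is 0.33. The fit was tested on simulated data.

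The 3 genes and the 5 word lists were chosen with earlier results of these data known. Descriptions came from the study's supplementary gene table, held in part. Genes named are the 3, *Mycth_90344*, per list up to 4 called genes with the largest fold change and the 2 most abundant not called, the 3 nearest in pattern, and 2 neighbours on either side. Beyond these, list genes below the filter, *cat1* and single values were added after the values were seen. Of 8716 identifiers, 8687 matched the RefSeq table. Alternatives covered pseudocount, filter, scaling, trend, fold threshold, a block for the replicate number and omission of single libraries. Plots used matplotlib 3.10.9.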

Additional observations from a re-analysis of the deposited data

How the results depend on the processing

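The 3 enzyme genes stayed higher in the libraries labelled ΔMtTrh-1 under every alternative run. The log2 fold change of *Mycth_2067982* was 2.96 with a pseudocount of 0.1 FPKM, 1.63 with 5 FPKM and 2.67 with every library scaled to the same sum, and *Mycth_2084531* had 3.01 with 5 FPKM, 3.02 with median-of-ratios scaling and 3.08 with the scaled sum. Leaving out 1 library gave 1.62 to 1.68 for *Mycth_112025*, 2.49 to 2.59 for *Mycth_2067982* and 3.03 to 3.07 for *Mycth_2084531*. Over all genes, 493 were called with a pseudocount of 5 FPKM (253 higher, 240 lower), 4926 with no fold threshold (2570 higher, 2356 lower), and 756 to 789 without 1 library. In the lists without the 3 genes, no fold threshold gave 6 genes of the thioredoxin and peroxiredoxin list and 8 other reductase genes. A pseudocount of 5 FPKM left 1 flavin disulfide reductase gene. *Mycth_2072733*, at 0.027 with all libraries, had −0.094 and 0.149 without MtWT replicate 2 and 1.

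The libraries share only a replicate number, with a correlation of deviations of −0.02 over 7525 genes. With the replicate block 773 genes were called, against 772 without it, and no call of a named gene changed. *Mycth_2301316*, at 1.01, fell short of the fold threshold with median-of-ratios scaling, without ΔMtTrh-1 replicate 1 and without MtWT replicate 2. Families by protein similarity, planned as a further grouping, were not run, because no protein table was used here.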
